A study of Danio rerio with 2 samples.

Results

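Visual opsins are the light-absorbing proteins of rods and cones, and this account follows their genes in whole zebrafish larvae kept in benzo[a]pyrene (BaP) or in solvent. The members were chosen by gene symbol: the cone opsin genes opn1sw1, opn1sw2, opn1mw1, opn1mw2, opn1mw3, opn1mw4, opn1lw1 and opn1lw2, and the rod opsin gene rho. Of these 9 genes, 7 had a row in the deposited table of 22849 genes. No row carried the symbols opn1mw3 and opn1mw4, 2 of the green cone opsins, which were not analysed here.

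The larvae were wild-type fish of strain AB, sampled whole at 6 days post fertilization (dpf). From 3 to 6 dpf they were held in BaP at 1 µM or in dimethyl sulfoxide (DMSO), the solvent, at 0.1%. BaP is a polycyclic aromatic hydrocarbon that activates the aryl hydrocarbon receptor. Each treatment gave 1 library, made from RNA of 4 pooled biological replicates, so no difference described here has a replicate check.

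A visual opsin is a membrane receptor that holds a retinal chromophore, and light changes the shape of that chromophore and starts the transduction cascade. Each cone of the zebrafish retina is classed by the opsin it carries, for ultraviolet, blue, green or red light, and rods carry rhodopsin. The green and the red opsin genes are tandem copies, which in zebrafish are used at different ages and in different parts of the retina. Larvae of this age see mainly with cones, since rods mature later.

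Values are the authors' normalized read counts, rounded to whole numbers. They summed to 13443263 under DMSO and 11968060 under BaP, or about 19804000 and 21996000 reads as estimated from the pattern of the low values. The BaP response gene cyp1a, which encodes a cytochrome P450 that oxidizes BaP, had 650 under DMSO and 17859 under BaP, and was thus higher in the library labelled BaP. Markers of cones (gnat2, 1659 and 945), rods (gnat1, 1077 and 728), lens (cryaa, 109 and 127) and neurons (elavl3, 4234 and 3914) were all detected in the DMSO and the BaP library, respectively. Exon lengths were not used here, so the levels of different genes are not ranked against each other, and each gene is compared with itself between libraries. In whole larvae, fewer cells of a type and less RNA per cell cannot be told apart.

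All 7 measured visual opsin genes had lower values in the BaP library, as did 56.4% of all genes with a sum of at least 10. The median log2 ratio, BaP over DMSO, was -0.79 over the 7 genes and -0.06 over the 21764 genes with a sum of at least 10 in both libraries together. Summed, the visual opsins had 44932 normalized reads under DMSO and 26876 under BaP. That sum was 1.67-fold lower in the BaP library, with a 95% interval from 1.65 to 1.69. Opsins made up 0.334% of all values under DMSO and 0.225% under BaP. The intervals here and below are exact binomial intervals on the estimated reads and cover counting error only, without the spread between larvae or between library preparations.

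A fold of at least 2 was reached by 1 of the 7 genes, opn1mw1, in the lower direction, against 4.36% of all compared genes, and by 0 of the 7 in the higher direction, against 3.75%. At a fold of at least 1.5, 5 of the 7 were lower, against 11.5% of all compared genes, and 0 were higher, against 9.12%. Among the 4800 genes with a sum of at least 1000, a fold of at least 1.5 in the lower direction was found for 7.98%. The opsins opn1mw2 and opn1lw1 fall below that sum, so this share and the 5 of 7 are not a like comparison. The split of all genes depended on the scaling. It was 817 higher and 948 lower for the values as deposited, and 1120 higher and 647 lower when both libraries were scaled to the same total. That scaling moved every log2 ratio by 0.17.

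**Figure D1:**
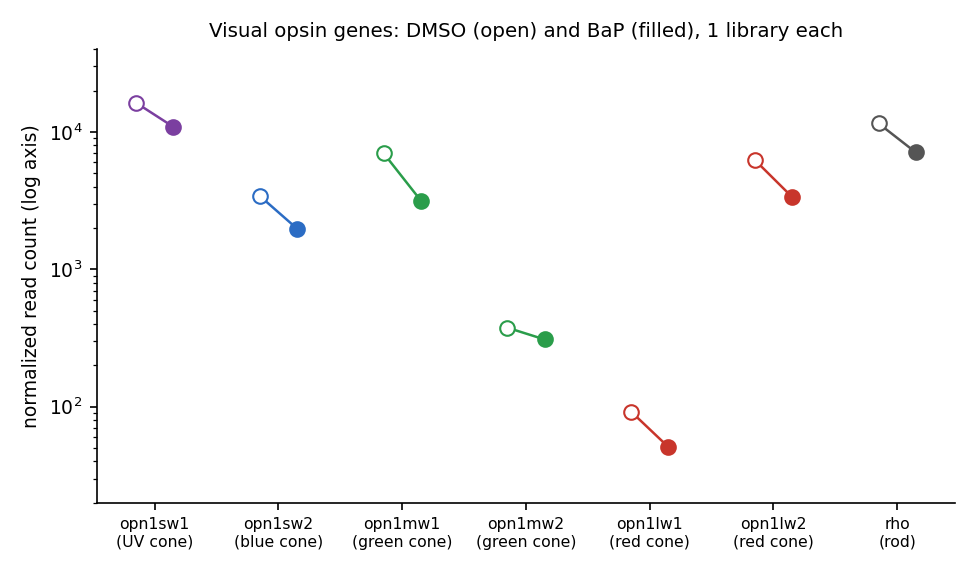
Normalized read count (log axis) of each visual opsin gene in the DMSO library (open circle) and the BaP library (filled circle), 1 library each, with lines joining the values of one gene. Every line slopes down, from the opn1sw1 pair at 16285 and 10901 to the opn1lw1 pair at 92 and 51.

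The ultraviolet cone opsin gene opn1sw1 (ENSDARG00000045677, chromosome 4, 13577665 to 13580348, minus strand) had 16285 normalized reads under DMSO and 10901 under BaP. Its value was 1.49-fold lower in the BaP library (95% interval 1.47 to 1.52), the smallest difference among the 4 cone classes. Of all compared genes, 11.5% had a lower ratio than opn1sw1.

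The blue cone opsin gene opn1sw2 (ENSDARG00000017274, chromosome 11, 25459697 to 25475403, plus strand) had 3413 normalized reads under DMSO and 1979 under BaP. This was a 1.72-fold lower value (95% interval 1.65 to 1.80). The gene model overlaps 1640 bases of hcfc1a, a gene on the opposite strand, and 121 bases of the antisense gene CT573282.1. The strand setting of the counting is not stated in the labels or the table, so reads from the overlaps cannot be assigned. The value of hcfc1a was 884 under DMSO and 854 under BaP, and that of CT573282.1 was 48 and 40, both closer to equality than opn1sw2.

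The measured green cone opsin genes opn1mw1 and opn1mw2 lie on the plus strand of chromosome 6, separated by 2496 bases. The gene opn1mw1 (ENSDARG00000097008, 41181869 to 41183823) had 6993 normalized reads under DMSO and 3170 under BaP. Its value was 2.21-fold lower in the BaP library (95% interval 2.14 to 2.28), the largest fold of the 7 genes, and 3.09% of all compared genes had a lower ratio. It came out short of 2-fold when the libraries were scaled to the same total, with a log2 ratio of -0.97, and by a small margin when the trend of the ratio on abundance was removed.

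The second green copy, opn1mw2 (ENSDARG00000044280, 41186320 to 41189460), had 376 normalized reads under DMSO and 309 under BaP. Here the value was 1.22-fold lower in the BaP library (95% interval 1.08 to 1.37), the smallest fold of the 7 genes, and 27.0% of all compared genes had a lower ratio. The green copies thus held the largest and the smallest fold of the family, and their intervals did not overlap. As a share of the summed green pair, opn1mw2 was 5.10% (95% interval 4.70 to 5.53) in the DMSO library and 8.88% (8.20 to 9.61) in the BaP library. Summed, the green pair had 7369 and 3479 normalized reads, 2.12-fold lower in the BaP library (2.05 to 2.19). In the RefSeq annotation of assembly GRCz12tu, opn1mw3 and opn1mw4 follow opn1mw2 on the same chromosome. The labels do not say how reads matching several tandem copies were counted, so the division of reads between copies is uncertain, and the sum covers only the 2 measured copies.

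The red cone opsin genes opn1lw1 and opn1lw2 follow opn1sw2 on the plus strand of chromosome 11. Between opn1sw2 and opn1lw1 lie 2239 bases, and between opn1lw1 and opn1lw2 lie 1008. The gene opn1lw2 (ENSDARG00000044861, 25481046 to 25483206) had 6243 normalized reads under DMSO and 3367 under BaP, a 1.85-fold lower value (95% interval 1.79 to 1.92). The other copy, opn1lw1 (ENSDARG00000044862, 25477643 to 25480037), had 92 and 51, which is a 1.80-fold lower value with a wide interval, from 1.36 to 2.41, because it rests on about 136 and 94 reads.

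The folds of the red copies had overlapping intervals, whereas those of the green copies did not. The share of opn1lw1 in the red pair was 1.45% (95% interval 1.22 to 1.72) in the DMSO library and 1.49% (1.21 to 1.82) in the BaP library. These shares overlapped within counting error, which does not show that the copies behaved alike. Summed, the red pair had 6335 and 3418 normalized reads, 1.85-fold lower in the BaP library (1.79 to 1.91). The same uncertainty about reads shared between copies applies.

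The rod opsin gene rho (ENSDARG00000002193, chromosome 8, 54076195 to 54077740, minus strand) encodes rhodopsin, and it had 11530 normalized reads under DMSO and 7099 under BaP. The value was 1.62-fold lower in the BaP library (95% interval 1.59 to 1.66), and 8.53% of all compared genes had a lower ratio. For comparison, the summed cone opsins had 33402 and 19777 normalized reads, 1.69-fold lower (1.67 to 1.71). The rod fold was the smaller of the pair, by little more than counting error, with rho at 25.7% of all visual opsin values under DMSO (25.3 to 26.0) and 26.4% under BaP (26.0 to 26.8).

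**Figure D2:**
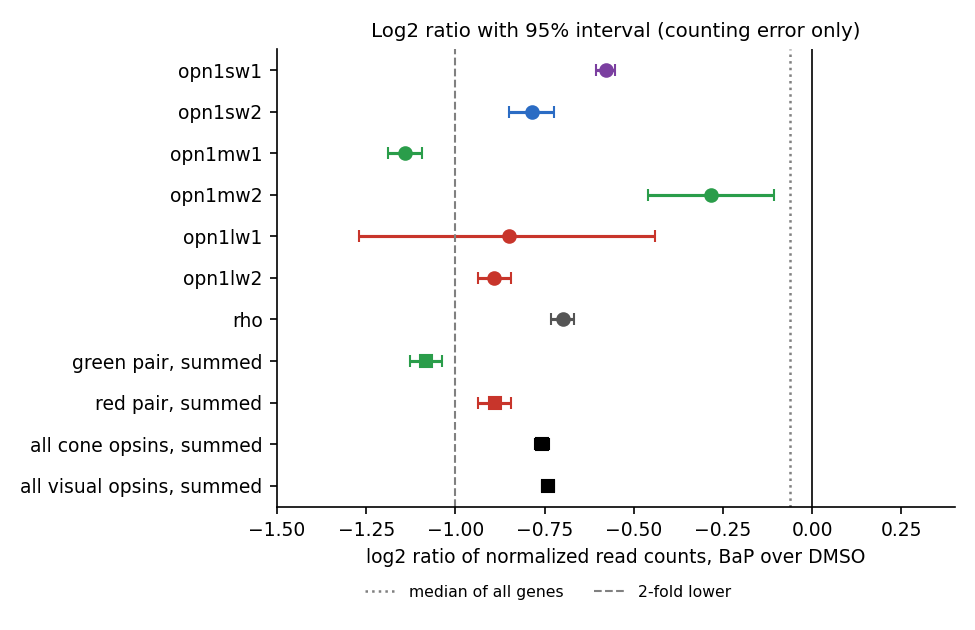
Log2 ratio of normalized read counts, BaP over DMSO, for the 7 measured opsin genes (circles) and for sums of genes (squares), with 95% intervals that cover counting error only. All points lie left of the median of all genes (dotted line at -0.06), and opn1mw1 and the summed green pair lie left of the line for a 2-fold lower value.

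Within a library, the proportions of the cone classes do not change when all values of the library are multiplied by one factor. The share of the ultraviolet opsin among all cone opsin values was 48.8% (95% interval 48.3 to 49.2) in the DMSO library and 55.1% (54.6 to 55.6) in the BaP library. The green pair made up 22.1% (21.7 to 22.4) in the DMSO library and 17.6% (17.2 to 18.0) in the BaP library. The red pair made up 18.97% (18.6 to 19.3) and 17.3% (16.9 to 17.7). The ultraviolet share was thus higher in the BaP library by 6.37 percentage points, while the green and red shares were lower, each beyond counting error.

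The blue opsin held 10.2% (95% interval 9.95 to 10.5) of cone opsin values in the DMSO library and 10.01% (9.70 to 10.3) in the BaP library, intervals that overlap. These shares are of values and not of cells, and they are not corrected for gene length. With 1 library per treatment, the shift in proportions has no replicate check.

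**Figure D3:**
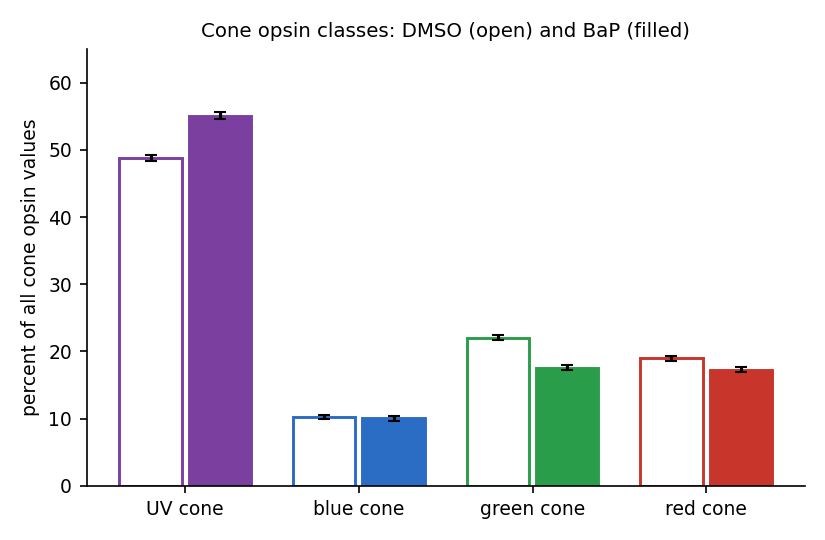
Share of each cone class in all cone opsin values, in percent, in the DMSO library (open bars) and the BaP library (filled bars), with 95% binomial intervals for counting error. The ultraviolet bar is taller in the BaP library (55.1% against 48.8%) and the green bar shorter (17.6% against 22.1%), while the blue bars are nearly level.

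**Figure D4:**
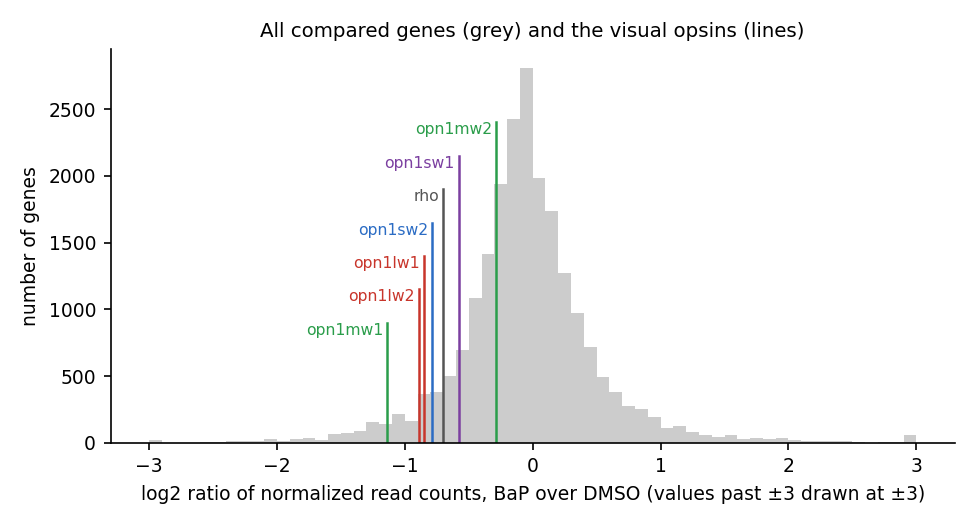
Number of genes (vertical axis) by log2 ratio of normalized read counts, BaP over DMSO (horizontal axis), for the 21764 compared genes in grey, with a line at the ratio of each visual opsin. The opsins stand on the lower side of the distribution, with opn1mw2 nearest its centre at -0.28 and opn1mw1 farthest out at -1.14.

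Opsins pass the light signal to a G protein, transducin, which activates a phosphodiesterase, and the fall in cyclic GMP closes the cation channels of the outer segment. The lists that follow are read against the median of all compared genes (-0.06) and their 4.36% of genes lower by at least 2-fold. Counts of ratios below 1 are read against 56.4% of all compared genes. Of 205 compared genes on all 11 lists, 10 were lower and 0 higher by at least 2-fold, and 4 of the 10 had a sum of at least 50. Of 23 measured cone phototransduction genes, 20 had a ratio below 1, 1 was lower by at least 2-fold and 0 were higher (median log2 ratio -0.35). The gene past 2-fold, guca1g, encodes a guanylate cyclase activator and had 33 normalized reads under DMSO and 8 under BaP. Among the cone markers, the transducin gene gnat2 had 1659 and 945, the arrestin genes arr3b 1140 and 688 and arr3a 2558 and 2004, the opsin kinase gene grk7a 105 and 66, and the phosphodiesterase gene pde6c 132 and 106. None of these 5 markers reached a fold of 2, and each was lower in the BaP library. The 3 list members with a ratio above 1, named after their values had been seen, were the phosphodiesterase inhibitor gene pde6ha (212 and 323), the channel gene cngb3.1 (86 and 137) and the transducin gene gnb3a (428 and 435).

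Of 21 measured rod phototransduction genes, 20 had a ratio below 1, 1 was lower by at least 2-fold and 0 were higher (median -0.34). The gene past 2-fold was pdca, for the transducin-binding protein phosducin, with 37 and 15 normalized reads. The other phosducin gene, pdcb, had 89 and 78. The rod markers gnat1, for rod transducin, with 1077 and 728, saga, for a rod arrestin, with 447 and 300, and pde6b, for a rod phosphodiesterase subunit, with 334 and 264, were below 2-fold. The marker cnga1a had no row. Summed over the list, the log2 ratio was -0.46 for the cone list and -0.26 for the rod list, against -0.76 for the summed cone opsins and -0.70 for rho. Without gnb1a and gnb1b, G protein genes expressed in many tissues, the rod list came to -0.45, computed after the data had been seen. No gene was left out of the cone list, which also holds genes near equality, such as slc24a2 (588 and 576). The trimmed rod sum and the whole cone sum are thus not a like comparison.

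The outer segment structure list holds genes for the discs, whose membrane carries opsins, for the matrix around photoreceptors and for other photoreceptor proteins. Of 24 gene models on this list, 23 had a ratio below 1 but 0 reached 2-fold in either direction (median -0.19). The disc protein gene prom1b had 1584 and 1494 normalized reads, and prph2b, for a disc rim protein, had 1088 and 892. The visual cycle, which regenerates the chromophore, had 2 of 21 genes lower by at least 2-fold and 0 higher (median -0.30). On that list 15 ratios were below 1 and 6 above. The 2 genes past 2-fold were rpe65b, of the retinoid isomerase family, with 165 and 81, and lrata, for a retinol acyltransferase, with 20 and 9. The isomerase gene of the pigment epithelium, rpe65a, had 127 and 149.

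Transcription factors and other regulators that set photoreceptor identity had a list median closer to 0 than that of the opsins, though single members overlapped with the opsins. Of 20 listed regulators, 0 reached 2-fold in either direction (median -0.14), 12 had a ratio below 1 and 8 above. That split is near the 56.4% below 1 among all compared genes. Members farthest from equality, picked after their values had been seen, were prdm1a with 240 and 369 normalized reads and samd7 with 77 and 53. The general photoreceptor factor crx had 1141 normalized reads under DMSO and 1004 under BaP, and the photoreceptor differentiation factor neurod1 had 3434 and 3487. The factor tbx2b, needed for ultraviolet cones in zebrafish, had 736 and 692, and foxq2, needed for blue opsin expression in zebrafish, had 50 and 35. The factors six6b and six7, which act on green and blue opsin genes in zebrafish, had 202 and 231 and 962 and 841. The thyroid hormone receptor gene thrb, needed for red cones, had 867 and 795. The rod factors nr2e3 and nrl had 83 and 66 and 24 and 26.

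Other opsins, most of them expressed in the brain, pineal organ or inner retina, had a list median near that of all genes. Of 25 measured genes, 2 were lower by at least 2-fold and 0 higher, with 15 ratios below 1 and 10 above (median -0.08). This split too is near the 56.4% below 1 among all compared genes. The 2 genes, opn7c with 18 and 9 normalized reads and tmtops3b with 21 and 4, had low values. In the pineal list, 0 of 8 reached 2-fold in either direction (median 0.09), and otx5, a homeobox gene of photoreceptors and the pineal organ, had 602 and 647 while aanat2, for an enzyme of melatonin synthesis, had 298 and 280.

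Markers of other cells of the eye were measured to place the opsins. Of 18 lens genes, 1 was lower by at least 2-fold and 0 higher (median 0.03), and that gene, the crystallin gene cryba1a, had 10 and 2 normalized reads. Among the lens genes, 5 ratios were below 1 and 11 above. The lens markers differed in direction, with cryaa at 109 and 127, mipa at 210 and 175, and mipb at 125 and 109. Of 24 genes of other retinal neurons and Müller glia, 1 was lower by at least 2-fold and 0 higher (median -0.09), the ganglion cell factor gene atoh7 with 29 and 8. On that list 18 ratios were below 1 and 6 above. Its summed values were 14714 under DMSO and 16653 under BaP, but 11104 and 10573 without glula. That gene, for glutamine synthetase, a glial enzyme also expressed elsewhere, had 3610 and 6080. The other Müller glia marker, rlbp1a, went the other way, with 402 and 293.

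Of 12 genes of pigment epithelium and melanin, 10 had a ratio below 1, 2 were lower by at least 2-fold and 0 higher (median -0.61). The 2 above 1 were the pigment epithelium markers rpe65a (127 and 149) and rgra (149 and 234). The other such marker, rlbp1b, had 26 and 22, so the low median comes mainly from the melanin genes. The summed values of the list were 1397 under DMSO and 1059 under BaP. The genes past 2-fold were pmelb, for a melanosome matrix protein, with 78 and 35, and tyr, for the melanin enzyme tyrosinase, with 63 and 31. Melanophores of the skin express most of these genes too. Of 16 neuronal genes, 13 had a ratio below 1 and 3 above, and 0 reached 2-fold in either direction (median -0.14). Among them, snap25a had 5714 and 4963 and syt1a 4960 and 4973. The part of the cells marked by these lists in the opsin values was not tested.

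**Figure D5:**
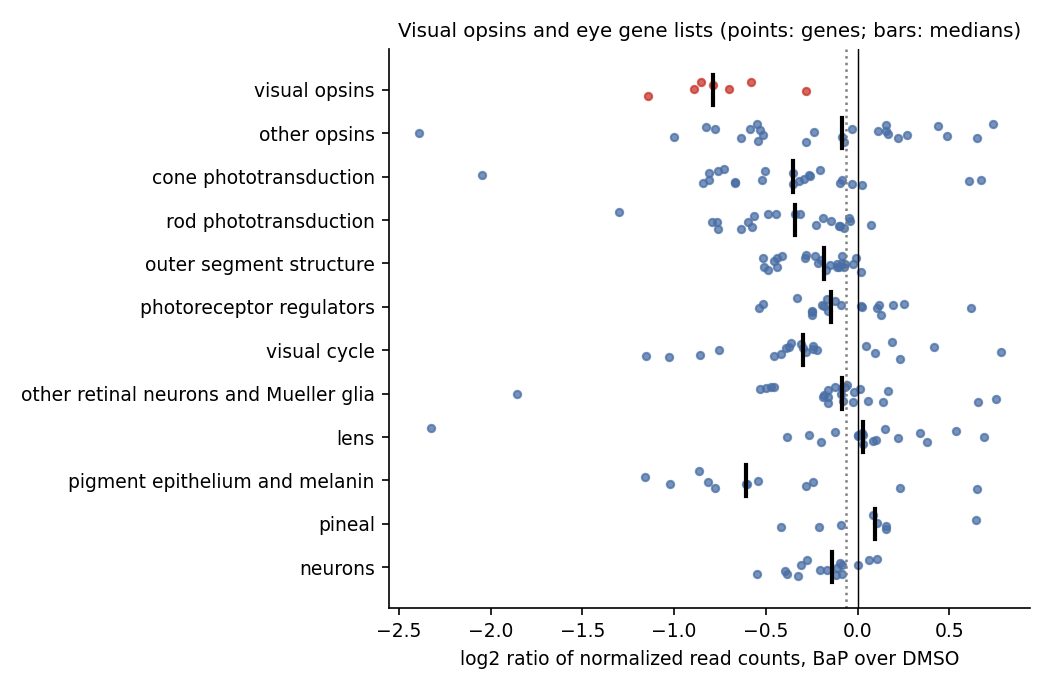
Log2 ratio of normalized read counts, BaP over DMSO, for each compared gene (points) of the visual opsins and of 11 gene lists of the eye, pineal organ and neurons, with the list median (black bar) and the median of all genes (dotted line). The opsin median lies at -0.79, the cone and rod phototransduction medians at -0.35 and -0.34, and the lens median at 0.03.

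Likeness to the summed cone opsins could be measured only as the difference in log2 ratio over 2 libraries. Among 162 listed genes with a sum of at least 100, the nearest to their ratio of -0.76 were rdh5, for a retinol dehydrogenase of the visual cycle (81 and 48 normalized reads, -0.75), gnb3b, for the cone transducin beta subunit (3845 and 2266, -0.76), and guca1a, for a guanylate cyclase activator (112 and 66, -0.76). With 2 libraries, any gene of a similar fold would be as near.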

How the data were processed

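Per the labels' protocols, stranded mRNA libraries were made from 200 ng of total RNA, 1 per treatment. The submitters' processing notes list danRer11 and GRCz11 as builds, and as tools featureCounts 1.6.3, STAR 2.6.1d and Trimmomatic 0.38, without saying what each did. The deposited values are a score: read counts normalized by the authors and rounded, by a method that neither the labels nor the table state. Coordinates are those of the deposited table, which does not name a build.

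The planned comparison was the ratio of deposited values, BaP over DMSO, without a p-value. Genes with a sum of at least 10 entered, and a 0 was set to 3 to take a fold. The scaling factor of each library was estimated by maximum likelihood from the values up to 200, as 0.679 (DMSO) and 0.544 (BaP), ahead of the runner-up factors 0.655 and 0.521 by 88.4 and 139 units of log-likelihood. Values divided by the factor gave estimated reads. Rounding alone leaves these uncertain by about 1 read, and error in the factor adds more for high values. The Clopper-Pearson intervals of ratios (95%) were widened for the rounding but not for error in the factor. With the values taken as reads, the interval of opn1lw1 ran from 1.27 to 2.59-fold lower. Factors and intervals were tested on simulated data. For the intervals these data held only counting error and rounding, so that test does not cover the spread between larvae or library preparations. Without molecular identifiers, PCR copies of one molecule count separately.

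The members, and the 11 lists of 225 genes, were chosen with earlier results of these data known. Of these genes 206 were matched, 4 of them through a name table. All opsins were named, and in each list up to 4 genes past 2-fold, those of highest value first, or else the 2 of highest value; the regulators tbx2b, foxq2, six6b, six7, thrb, nr2e3, nrl and crx were always named. Cell type markers were named too, and rpe65a and glula were picked after their values had been seen. Alternatives were other scalings, filters, a fold of 1.5 and removal of the trend on abundance. Sequences were not used here, and a related gene model is not reported here. Computations used Python 3.11.15, numpy 2.4.6, pandas 2.3.3, scipy 1.17.1 and matplotlib 3.10.9.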

Additional observations from a re-analysis of the deposited data

How the results depend on the processing

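The log2 ratio of all 7 opsin genes stayed below 0 under each of the 4 other scalings, closer to 0 than as deposited. Scaled to the same total, the log2 ratio was -0.59 for the summed cone opsins, -0.53 for rho, -0.72 for the red pair, -0.92 for the green pair, -0.62 for opn1sw2 and -0.41 for opn1sw1. With the trend on abundance removed these were -0.61, -0.55, -0.75, -0.94, -0.64 and -0.43. With the trimmed mean of M values they were -0.69, -0.64, -0.83, -1.02, -0.72 and -0.52. The median of ratios gave -0.70 for the summed cone opsins, -0.64 for rho, -0.83 for the red pair, -1.02 for the green pair and -0.52 for opn1sw1. Most of these shifts exceed the intervals, which hold counting error only. The median of ratios gave -0.73 for opn1sw2, inside its interval. The single genes opn1mw2 and opn1lw1 stayed inside their intervals under all 4 other scalings. For opn1mw2 alone, chosen after the data had been seen, the ratio was -0.28 against -1.08 for the green pair. The count of opsins lower by at least 2-fold was 1 as deposited, 0 with equal totals and 0 with the trend removed, and it was 5 at a fold of 1.5.

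Of the 205 compared list genes, 10 were lower and 0 higher by at least 2-fold. The lower count was 5 with equal totals, 4 with a sum of at least 50 and 33 at a fold of 1.5, and the higher count was 1 without a filter and 10 at a fold of 1.5. Of all genes, 497 were lower and 552 higher with a sum of at least 50, and 2501 were lower and 1984 higher at a fold of 1.5. As a share of all visual opsins, rho included, the ultraviolet opsin differed by 4.32 and the green pair by -3.46 percentage points, against 6.37 and -4.47 among cone opsins. Counts for single lists that were above 0 as deposited were 1 or 2 genes each. Set against each alternative they gave 49 comparisons, and in 22 the count moved by more than 1.5 times or to 0. Removal of the trend on abundance shifts genes unequally, by 0.05 to 0.14 among the opsins, and class shares were not recomputed under it. No paired analysis was possible because each treatment had 1 library. Depth limits mainly opn1lw1.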

Other observations

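Genes in the table within 50 kb of an opsin gene were looked at after the values had been seen. Beside the green pair, the transporter genes slc6a22.1 and slc6a22.2 had log2 ratios of -0.20 and -0.46, and synpr, for a synaptic vesicle protein, had -0.51 (54 and 38 normalized reads). Downstream of the red pair, gnl3l had 425 normalized reads under DMSO and 427 under BaP, and tfe3b had 106 and 128. On the other side of that cluster, si:dkey-13a21.4 had 69 and 28, a log2 ratio of -1.30. The other genes on that side were hcfc1a, with 884 and 854, and gata1a, with low values of 16 and 23. Next to rho, magi1a had 829 and 698 and prickle2a 415 and 377. Beside opn1sw1, calua had 242 and 297 and tnpo3 1079 and 1007.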
